A study of Mus musculus with 36 samples.

Results

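Sprr1a, Clu, Perp, Mal and Cited4 are 5 of the 20720 nuclear genes counted in single cells of the mouse left ventricle after ischemic injury. They were picked by gene symbol as markers of injured cardiomyocytes, with values of these same cells in view. Their levels in cardiomyocytes of injured and sham-operated hearts are therefore given as a description, with no test. For the members, tests are given only where the choice did not rest on the comparison, that is between both sham groups and in the other cell classes. Sprr1a, whose values in these cells were part of that choice, had 0 counts in 443 sham cardiomyocyte-like cells and was present at day 3 of both kinds of injury. For Clu the data went against the label after permanent ligation, where its level was 18.3 times lower than in sham. For Perp, Mal and Cited4 the injured plates overlapped with their sham plates, except for Perp and Cited4 in IR day 1. There Perp was low, and Cited4 was at 0 on the 3 plates but at 0.927 times day 1 sham pooled over all cells.

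All hearts came from male C57BL/6 mice of 8 weeks, and cells were taken from the infarcted region or its counterpart in sham hearts. Ischemia-reperfusion (IR) was a ligation of the left anterior descending artery that was released after 1 hour, and myocardial infarction (MI) was a permanent ligation. Sham hearts gave 4 plates collected 1 day and 8 plates collected 14 days after surgery. For IR there were 9 plates from the first day, 7 from day 3 and 3 from day 14, while MI was sampled on day 3 only, with 5 plates. Living single cells were sorted 1 per well into plates, and transcripts were counted by unique molecular identifiers (UMIs). Day 3 was compared with both sham groups at equal weight, as no sham of that day was analysed here. MI plates outnumbered the mice of that condition, so some of them share a mouse, and the labels do not give which. The p-values below measure the spread between plates, which may be smaller than that between mice.

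A cardiomyocyte that is overstretched or short of oxygen turns down its genes of mature contraction and fuel use, and turns on a fetal and stress programme. Sprr1a encodes a small proline-rich protein that transglutaminases cross-link in the envelope of skin cells, and it is known as a gene that the stressed heart induces through the gp130 cytokines. Clu encodes clusterin, a secreted chaperone that binds misfolded proteins and lipids. Perp encodes a tetraspan membrane protein of desmosomes and a target of p53. Mal encodes a tetraspan proteolipid of membrane rafts, known from myelin and from apical transport. Cited4 encodes a transcriptional co-regulator that binds the CBP and p300 acetyltransferases and has been linked to exercise-induced heart growth.

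The genes lie apart in the genome (GRCm38, GENCODE M21 models). Sprr1a is a gene of 2 exons on the minus strand at chr3:92483952-92485895, and Clu has 9 exons on the plus strand at chr14:65968483-65981547. Perp has 3 exons on the plus strand at chr10:18845020-18857073. Mal has 4 exons on the minus strand at chr2:127633226-127656695, and Cited4 is a gene of 1 exon on the plus strand at chr4:120666572-120667820. The tables hold 1 count per gene and well, so transcript forms were not told apart.

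The promoter of Sprr1a is printed because Sprr1a was counted at day 3 of both kinds of injury and had 0 counts in the sham cardiomyocyte-like cells. The sequence below covers the 250 bases before its start at chr3:92485882-92486131 on the minus strand (RefSeq, GRCm38.p6). Capitals mark the AP-1 motif TGANTCA, in which N is any base.
Sprr1a promoter: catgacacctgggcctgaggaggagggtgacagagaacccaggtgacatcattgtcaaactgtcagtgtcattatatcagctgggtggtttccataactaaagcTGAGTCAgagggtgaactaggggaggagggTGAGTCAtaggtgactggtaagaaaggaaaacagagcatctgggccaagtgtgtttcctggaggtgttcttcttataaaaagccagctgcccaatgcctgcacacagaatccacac
AP-1 is the dimer of Fos and Jun proteins, which stress signals activate. The motif, searched on both strands, stood 146 to 140 bases and 116 to 110 bases before the start. At least 1 match was present in 6.75% of the 32851 mouse promoters of the same length, and 2 or more were present in 0.338%. The promoters of Mal and Cited4 held 0 matches, and those of Clu and Perp were not searched here. A STAT motif (TTCCNGGAA, in 0.913% of promoters) and the cAMP response element (TGACGTCA, in 1.55%) were absent from the windows of Sprr1a, Mal and Cited4. A match is a run of letters, and binding was not measured.

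At least 1000 nuclear UMIs were counted in 3146 of 13824 wells, and these wells were kept as cells. Clustering without the 5 members placed 1150 of them in a cardiomyocyte-like class, 351 in an endothelial-like, 302 in a macrophage-like and 299 in a fibroblast-like class, and 865 stayed unnamed. In sham day 14, 42 of 77 wells of replicate 7 and 34 of 97 of replicate 2 matched the deeper well of the same position on the other plate, so both were counted as 1 sample. In IR day 1, 17 of 88 wells of replicate 9 matched replicate 5 in this way, and both were kept as plates. Pooled values leave replicate 2 out, so that 233 cardiomyocyte-like cells of day 1 sham and 210 of day 14 sham remained. IR gave 36 such cells at day 1, 282 at day 3 and 344 at day 14, and MI gave 20. Plates with at least 5 cells of a class entered the tests, which left 2 MI plates for cardiomyocyte-like cells.

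The MI cardiomyocyte-like cells stood apart in ways that go beyond the members. Their median mitochondrial share of UMIs was 5.83%, against 75.6 to 83.6% in the other groups, and their median depth was 8298 UMIs against 1986 to 2502.5. Levels are given as CPM, the UMIs of a gene per 1000000 UMIs of the class. The ribosomal transcript Rn45s was at 39947 CPM in MI and 236961 in sham. All 10 cardiomyocyte markers were detected in them, with Tnnt2 (cardiac troponin T) at 11585 CPM against 12644 in sham and Actc1 (cardiac actin) at 25061 against 9288. Myh6, the adult myosin heavy chain, was however at 1125 against 19750, and Ttn (titin) at 545 against 20581. The cluster that held 19 of the 20 MI cells had 3 of the 10 markers raised over all other cells. The other cardiomyocyte-like clusters had 10, 10 and 5 raised. The MI plates also carry a protocol text of their own in the labels, so MI and the way its plates were made cannot be told apart. The summed level of 8 fibroblast markers in cardiomyocyte-like cells was 114 to 650 CPM on the sham plates, with 2 to 7 detected. After IR it was 456 to 3150 CPM at day 1 (4 to 6 detected), 536 to 3357 at day 3 (5 to 8) and 433 to 1282 at day 14 (6 or 7), and after MI it was 633 and 1992 (4 and 6). Tcf21 was at 0 on all sham plates, and the part of fibroblast RNA in the results was not tested. Replicate 3 of IR day 3 stood apart as well, with 5 cardiomyocyte-like cells of 6209 UMIs in all, a median mitochondrial share of 28.4% and 0 UMIs of every member.

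Sprr1a had 0 UMIs in the sham cardiomyocyte-like cells and was counted on most plates at day 3. It was at 0 CPM in all 4 plates of day 1 sham and all 5 of day 14 sham. At day 3 of IR it was at 0, 437, 1627, 132 and 1523 CPM in replicates 3 to 7. The MI plates had 1013 and 249 CPM in replicates 2 and 3. The 2 MI plates and 4 of the 5 IR day 3 plates thus lay above all sham plates, and the plate at 0 was replicate 3. At IR day 1 the values were 332, 0 and 0 CPM, and at IR day 14 they were 0, 0 and 51.3 CPM.

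Pooled over cells, 930 UMIs of Sprr1a were counted in 282 cells of IR day 3 (723 CPM, 95% exact Poisson interval 677 to 771) and 187 in 20 cells of MI (809 CPM, 697 to 934). With 0 UMIs in 1503735 of sham, the level was at least 362-fold higher in IR day 3 and at least 405.5-fold higher in MI than the floor of 3 counts over the sham group. The MI to IR day 3 ratio was 1.12 (0.952 to 1.31), and the MI plates (249 and 1013 CPM) lay within the range of the IR day 3 plates (0 to 1627). These intervals cover counting error only, not the spread between plates. The IR day 1 value came from 8 UMIs in 1 of 36 cells. At IR day 14, 22 of the 24 UMIs lay in 1 cell of replicate 3, which also held 1130 UMIs of Clu, 15 of Perp and 6 of Mal at a depth of 33179 UMIs. Between day 3 and day 14 of IR the pooled level of Sprr1a differed 42.7-fold (28.5 to 67.0). That fold rests on 1 cell, as without it the IR day 14 level was 1.44 CPM in place of 16.9.

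**Figure D1:**
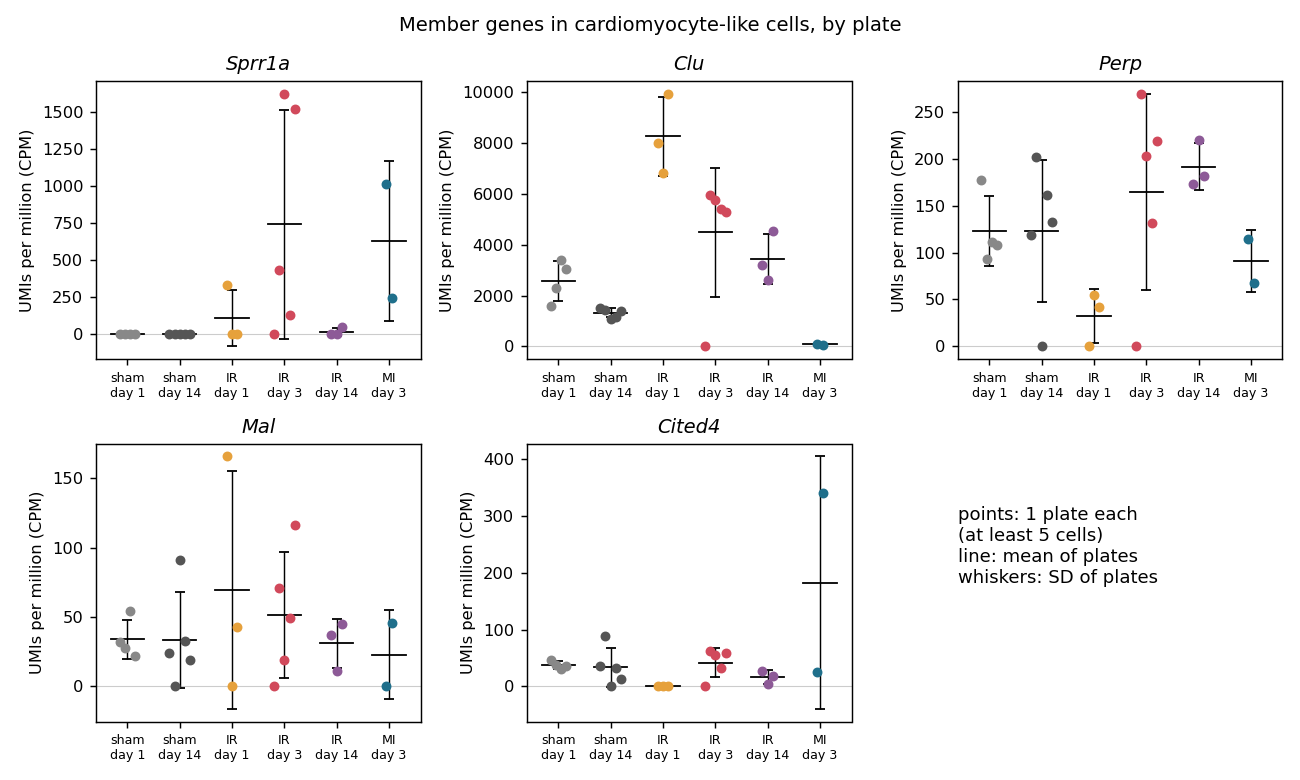
Level of each member in cardiomyocyte-like cells, in CPM (vertical axis, linear, from its own range in each panel), by group (horizontal axis). Each point is 1 plate with at least 5 such cells, the line is the mean of the plates and the whiskers are 1 SD, so that a whisker can reach below 0. Sprr1a is at 0 in the 9 sham plates and reaches 1627 in IR day 3, and Clu is at 6843 to 9946 in IR day 1 but at 67.9 and 101 in MI.

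Clu was counted in sham cardiomyocyte-like cells as well, and its level was above that of sham after IR and below it after MI. Its level was 2583 ± 795 CPM (SD, n = 4) in day 1 sham and 1326 ± 189 (n = 5) in day 14 sham. The plates of day 1 sham had 1609, 2291, 3389 and 3043 CPM, and those of day 14 sham 1524, 1444, 1093, 1158 and 1411. The IR day 1 plates had 8004, 6843 and 9946 CPM, and each of them lay above all sham plates. Those of IR day 3 had 5973, 5768, 5405 and 5288 CPM, with 0 in replicate 3, and those of IR day 14 had 3194, 2610 and 4544. The IR day 14 plates all lay above those of day 14 sham and overlapped with those of day 1 sham. The MI plates had 101 and 67.9 CPM, below every other plate except the one at 0.

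The pooled ratio of Clu was 2.79 (2.57 to 3.03) for IR day 1 against day 1 sham and 2.78 (2.66 to 2.90) at day 3 of IR against both sham groups. At day 14 it was 2.45 (2.29 to 2.64) against the sham of that day. One cell of IR day 14 held 22.6% of that group's Clu, and without it the group's level was 2796 CPM in place of 3527. In MI the pooled level was 112 CPM, from 26 UMIs, 18.3 times lower than sham (12.5 to 28.1) and 50.8 times lower than IR day 3 (34.7 to 77.9). Fitted over plates with edgeR, the log2 difference of Clu after IR was 1.19 ± 0.47 (SE) at day 1, 1.07 ± 0.34 at day 3 and 1.41 ± 0.45 at day 14. After MI it was -5.11 ± 0.78. When plates with as few as 1 cell entered, the IR day 1 value was -0.08. The low Clu level of MI moved with the low mitochondrial share, the low Myh6 and the separate protocol text, and their part in it was not tested.

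Perp, Mal and Cited4 were counted at low levels. Perp was at 94 to 177 CPM in day 1 sham and at 0 to 202 in day 14 sham. After IR it was at 0 to 269 CPM at day 3 and 173 to 220 at day 14, and the MI plates had 67.9 and 114, so that these groups overlapped with sham. The 3 plates of IR day 1 were at 0, 54.3 and 42.5 CPM, below all 4 plates of day 1 sham, from 3 UMIs in 36 cells (pooled ratio 0.207, 95% counting interval 0.042 to 0.620). Pooled over cells, Perp in IR day 3 was 1.83 times sham (1.53 to 2.19) and in MI 0.773 times sham (0.484 to 1.18). The fitted log2 difference after IR was -2.36 ± 0.80 at day 1, 0.42 ± 0.30 at day 3 and 0.43 ± 0.37 at day 14. After MI it was -1.20 ± 0.56.

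Mal was at 0 to 91.1 CPM in the sham plates, and the injured plates overlapped with them. It was at 166, 0 and 42.5 CPM in the IR plates of day 1, at 0 to 116 in those of day 3 and at 11.0 to 44.9 in those of day 14. The MI plates had 0 and 45.3 CPM. Its pooled level in IR day 3 was 2.72 times that of sham (1.88 to 3.98), and the fitted log2 difference was 1.32 ± 0.44. Without replicate 7 of IR day 3 that difference was 0.75 ± 0.52. For IR day 1 its difference of 0.46 ± 0.85 became -0.69 ± 1.19 without replicate 1. The MI level rested on 3 UMIs and was 0.454 times that of sham (0.0901 to 1.42).

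Cited4 was at 30.8 to 46.1 CPM in day 1 sham, and at 0 to 88.3 in day 14 sham. After IR it was at 0 to 61.8 CPM at day 3 and at 3.67 to 26.6 at day 14. It was at 0 in the 3 plates of IR day 1, while 4 UMIs were counted in 1 cell of a plate with fewer than 5 cells. Pooled over all 36 cells of IR day 1, Cited4 was 0.927 times day 1 sham (0.239 to 2.61). The MI plates had 25.3 and 339 CPM, so the MI to sham pooled ratio of 2.60 (1.55 to 4.24) had opposite directions in the plates. The fitted log2 difference of 1.19 ± 0.60 for MI became -1.20 ± 1.12 without replicate 3 and 2.18 ± 0.67 without replicate 2. At IR day 14 the pooled level was 0.469 times that of day 14 sham (0.266 to 0.826), and the fitted difference was -1.11 ± 0.57. Cited4 thus had no direction shared by the injured groups.

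The share of cells with at least 1 UMI gave the same order of groups for Sprr1a but not for Clu. To compare cells of unequal depth, each cell was thinned to 1000 UMIs. Sprr1a was then seen in 21.3% of IR day 3 cells (exact binomial 95% interval 16.6 to 26.5), in 40.0% of MI cells (19.1 to 63.9), and in 2.78% and 0.581% of IR day 1 and day 14 cells. As counted, the shares were 36.9% and 60.0% at day 3 of IR and MI. It was seen in 0 of 443 sham cells, of median depth 2103 UMIs, which allows a share of cells with a UMI of up to 0.677% at a floor of 3 counts and says nothing of expression below that depth. Macrophage-like cells held Sprr1a in 0 of 37 thinned cells of IR day 3 and in 1.88% of 160 in MI. As counted, those shares were 2.70% and 15.6%, at median depths of 2137 and 24335 UMIs against 2502.5 and 8298 in the cardiomyocyte-like cells. This class leaves out unnamed clusters of 167 and 154 cells with 9 macrophage markers raised, which held 42 and 55 Sprr1a UMIs. Of IR day 3 those clusters held 21 and 136 cells.

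Clu was seen in 75.1% and 69.0% of thinned cells of day 1 and day 14 sham, and as counted in 87.6% and 82.9%. The thinned share after IR was 69.4% at day 1 (51.9 to 83.7), 85.1% at day 3 and 79.1% at day 14. After MI, 2 of 20 thinned cells held it (95% interval of the share 1.23 to 31.7%). The level of Clu in IR day 1 was thus higher than in day 1 sham while the share of cells with a UMI was not. Of the Clu UMIs of IR day 1, 53.8% lay in 4 of 36 cells. Perp was seen in 12.4% of thinned cells of each sham group, and in 22.3% of those of IR day 3 (17.6 to 27.7). It was seen in 55 of 344 thinned cells of IR day 14 and in 3 of 20 of MI (3.21 to 37.9%). In the cells of IR day 1 it was seen in 0 of 36 after thinning and in 3 of 36 as counted. Mal was seen in 1.43 to 6.74% of thinned cells over the 6 groups, and Cited4 in 0 to 5.32% outside MI and in 3 of 20 cells in MI.

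**Figure D2:**
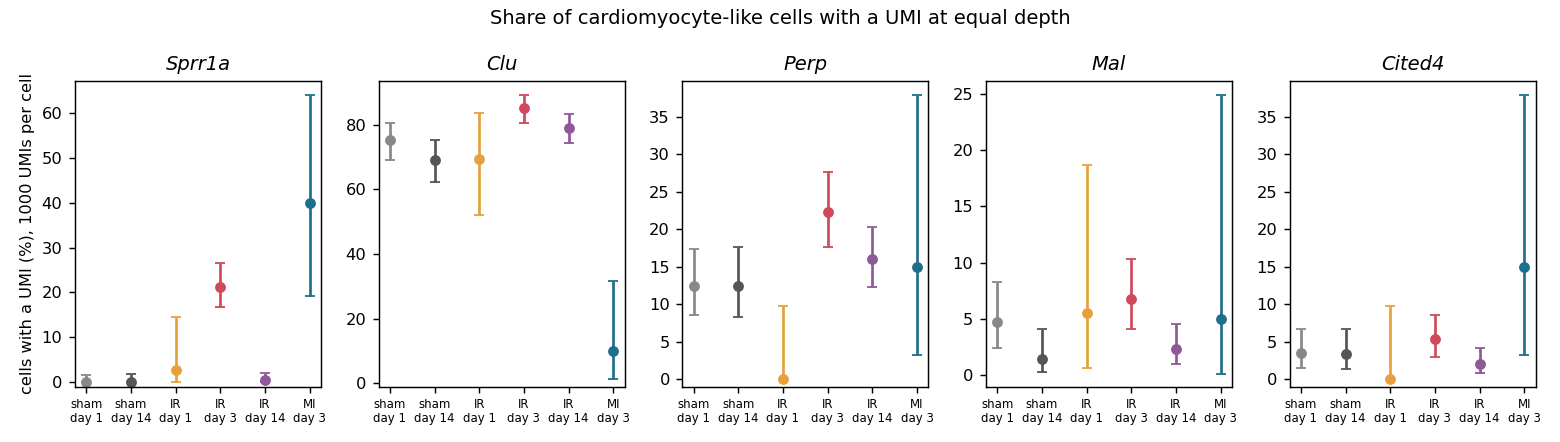
Share of cardiomyocyte-like cells with at least 1 UMI of each member after every cell was thinned to 1000 UMIs, in percent (vertical axis, its own range in each panel), by group (horizontal axis). Points are shares of all cells of a group and bars are exact 95% binomial intervals, which treat cells as independent. Sprr1a is at 0 in both sham groups, 21.3 in IR day 3 and 40.0 in MI, whereas Clu is at 69.0 to 85.1 outside MI and far lower in MI, from 2 of 20 cells.

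Within IR day 3 the UMIs were spread unevenly over the cells. The 29 cells highest in Sprr1a held 837 of its 930 UMIs, and the 29 highest in Clu held 59.3% of the Clu UMIs. The 24 highest of 233 day 1 sham cells held 46.3% of that group's Clu, and the 35 highest of 344 in IR day 14 held 61.4%. For Perp the 29 highest cells of IR day 3 held 56.6% and the 24 highest of day 1 sham 56.8%. One of the 4 cardiomyocyte-like clusters held 173 of the 282 IR day 3 cells and 19 of the 20 MI cells, although the members had been left out when cells were clustered. It was led by Sprr1a and by the stress genes Nmrk2, Nppa, Nppb, Acta1, Ankrd1 and Myh7. In its IR day 3 cells Sprr1a was at 1464 CPM, Clu at 9448, Perp at 323 and Mal at 118. In the IR day 3 cells of the other clusters, 54, 37 and 18 in number, Sprr1a was at 71.3, 158 and 50.4 CPM and Clu at 2530, 2374 and 2365. Perp was at 207, 122 and 141 CPM there and Mal at 44.3, 60.9 and 30.2. Cited4 was at 48.4 CPM in the stress-gene cluster and at 71.3, 36.5 and 80.7 in the others. In the 28 IR day 1 cells of the stress-gene cluster Clu was at 8103 CPM and Sprr1a at 0. Its 9 day 1 sham cells had Clu at 7086 CPM, and at 5597 without the highest cell. Its 3 day 14 sham cells had Clu at 492 CPM. In its 22 cells of IR day 14 Clu was at 16186 CPM, of which 1 cell held 1130 of 2049 UMIs, and without that cell at 9838. In its 19 MI cells Clu was at 109 CPM.

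The 104 IR day 3 cells with a Sprr1a UMI were deeper than the 178 without, with medians of 3323.5 and 2213.5 UMIs. Clu was at 6790 CPM in cells with Sprr1a and at 4733 in those without, but this order was not kept on every plate. It was 6938 against 5116 CPM in replicate 4 and 6996 against 2908 in replicate 7, which held most of the cells. In replicate 5 it was 4542 against 6456, and in replicate 6 it was 4051 against 6036, from 3 and 4 cells with Sprr1a. Mal was at 105 against 52.4 CPM, Perp at 267 against 226 and Cited4 at 51.7 against 67.4. Myh6 was at 10011 CPM in the cells with Sprr1a and at 13061 in the others. In MI the cells with and without Sprr1a had 99.8 and 148 CPM of Clu.

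**Figure D3:**
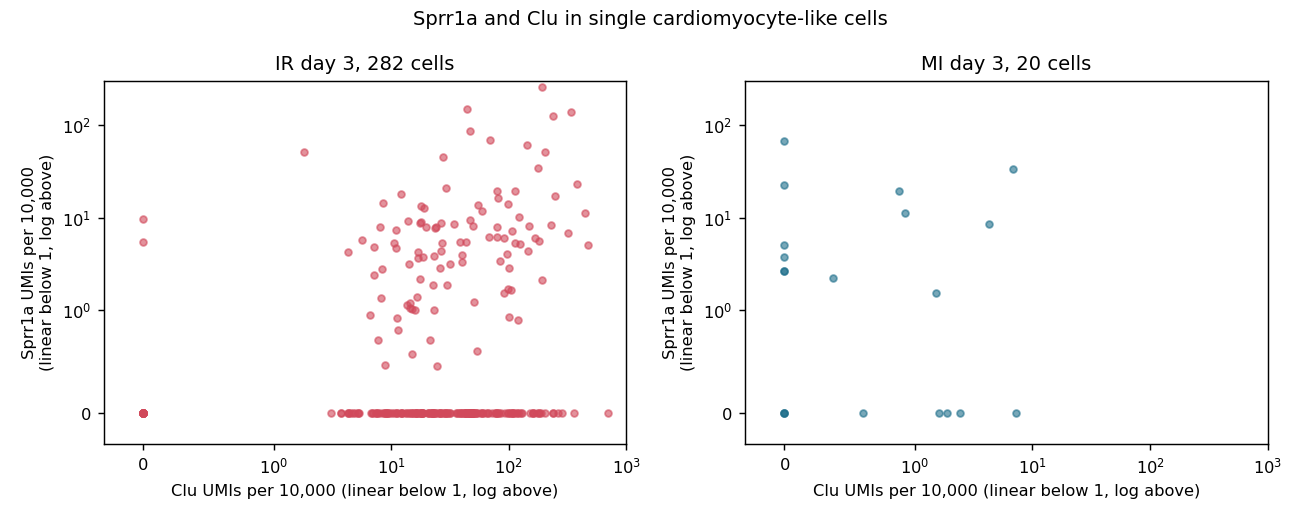
Sprr1a (vertical axis) against Clu (horizontal axis) in single cardiomyocyte-like cells, each in UMIs per 10000 UMIs of the cell, on axes that are linear below 1 and logarithmic above, with 1 point per cell. The 282 cells of IR day 3 (left) mostly carry Clu with or without Sprr1a, whereas in the 20 cells of MI day 3 (right) Sprr1a is present in 12 and Clu stays low.

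Between both sham groups, a comparison that the choice of the members did not use, no member passed the test. Clu was lower at day 14 by a log2 difference of -1.13 ± 0.42 (edgeR, adjusted p = 0.267), with all 5 day 14 plates below all 4 day 1 plates. The difference was -0.99 ± 0.64 for Mal (adjusted p = 0.666), -0.07 ± 0.54 for Cited4 (adjusted p = 0.991) and 0.03 ± 0.37 for Perp (adjusted p = 0.992). In the same edgeR fit 0.641% of 4211 genes passed. Sprr1a had 0 UMIs in both groups.

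The neighbouring pathways are given as lists chosen for what the members do. The lists were drawn up with earlier results of these cells known, so their counts are no independent evidence of a direction. They are described for cardiomyocyte-like cells by the number of genes that passed edgeR's test, beside the share of all 4211 genes that passed. That share was 36.5% in MI. After IR it was 12.2% at day 1, 6.39% at day 3 and 0.19% at day 14. The split of called genes depended on the scaling, so both are given. TMM gave 601 higher and 937 lower genes in MI where RLE, the median-of-ratios scaling, gave 807 and 761. The numbers were 162 and 351 against 310 and 134 in IR day 1, and 184 and 85 against 240 and 69 in IR day 3. From TMM to RLE the median log2 difference of all genes moved from -0.21 to 0.08 in MI. In IR it moved from -0.53 to 0.04 at day 1 and from -0.02 to 0.09 at day 3. The count of called genes also rested on few plates, as leaving out MI replicate 2 or 3 gave 567 or 950. It was 169 and 148 without IR day 3 replicates 4 and 7, and 330, 276 and 242 without IR day 1 replicates 1, 2 and 3.

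Of the cardiomyocyte stress genes, 19 of 20 were tested. Fibroblast markers reached higher sums on the injured plates than on the sham plates, and Timp1 was also among the leading genes of a fibroblast-like cluster. At IR day 3, 11 rose and 0 fell (median log2 difference 1.28), and leaving out replicate 3 gave the same counts. Timp1, an inhibitor of matrix proteases, rose by 4.83 ± 0.65 (SE), the uridine kinase Uck2 by 2.70 ± 0.44, the NAD-salvage kinase Nmrk2 by 2.58 ± 0.48, Myh7, the fetal myosin, by 2.01 ± 0.34, the crosslinker Actn1 by 1.73 ± 0.38 and Ankrd1, a titin-binding stretch sensor, by 1.56 ± 0.30. In MI 11 rose and 1 fell (median 1.49), led by Nmrk2 at 5.47 ± 0.47, Timp1 at 4.90 ± 0.88 and Uck2 at 4.64 ± 0.44. Hspb1, a small heat shock protein, rose by 2.89 ± 0.38, Ankrd1 by 2.51 ± 0.37 and the cell cycle inhibitor Cdkn1a by 2.49 ± 0.54, and Flnc fell by 2.09 on the log2 scale.

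At IR day 1, 10 stress genes rose and 0 fell (median 2.06), and under RLE 16 rose. Timp1 rose by 5.46 ± 0.54, Nmrk2 by 5.40 ± 0.62, Hspb1 by 3.24 ± 0.45, Uck2 by 3.18 ± 0.61, the actin-binding Xirp2 by 2.97 ± 0.44 and Actn1 by 2.92 ± 0.55. At IR day 14 Myh7 rose by 3.94 ± 0.48 and Nppa, the atrial natriuretic peptide, by 3.14 ± 0.64, and the other 17 tested genes did not pass. Between sham groups Myh7 fell by 2.25 on the log2 scale from day 1 to day 14, and 0 rose. Sprr1a and Clu differ in this setting: Clu was already high in IR day 1, when 10 of the 19 stress genes passed as higher, and Sprr1a was counted in 1 cell.

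All 12 mature cardiomyocyte genes were tested. In MI 11 fell and 0 rose (median log2 difference -5.75, or -4.73 with genes without MI counts at their bound). The calcium pump Atp2a2 was at -6.72 ± 0.82, the lipase Lpl at -6.41 ± 0.79 and Casq2, the calcium store protein calsequestrin, at -6.24 ± 0.76. Hrc, a calcium-binding protein of the sarcoplasmic reticulum, and the glucose transporter Slc2a4 rested on 2 and 1 UMIs in the MI plates of the fit, 153 times (42.3 to 1262) and 62.4 times (11.2 to 2469) lower than in sham. The potassium channel Kcnj2 had 0 UMIs there, which puts it at least 2.32-fold lower than sham at a floor of 3 counts over the MI plates. Under RLE 11 fell and 1 rose. At IR day 1, 10 fell and 0 rose (median -1.97), and 7 fell under RLE. Slc2a4 was at -3.82 ± 0.66, Myh6 at -2.69 ± 0.54 and Atp2a2 at -2.60 ± 0.55. At IR day 3, 4 fell and 0 rose (median -0.52), with Hrc at -1.30 ± 0.33, Myh6 at -1.24 ± 0.37, Ckm, the muscle creatine kinase, at -1.14 ± 0.31 and Cox6a2 at -1.01 ± 0.32. Leaving out replicate 3 of IR day 3 left 3 that fell. At IR day 14, 0 of the 12 passed in edgeR. The level of Clu was highest in IR day 1 and lowest in MI, both groups in which most of these genes fell.

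Sprr1a is known as a gene of gp130 signalling, of which 8 of 18 genes were tested. In IR day 3 the receptor Osmr rose by 2.59 ± 0.80 and Il11ra1 fell by 1.66 ± 0.51. One day after IR Osmr rose by 3.50 ± 1.08 and Stat3 by 1.49 ± 0.48, and under RLE 4 rose. In MI Il6st, the gp130 chain itself, and Il11ra1 fell and 0 rose. These were 2 of the 8 tested, where 36.5% of all genes passed. Il6st rested on 1 UMI and was 12.8 times lower than in sham (2.27 to 511), and Il11ra1 had 0 UMIs, at least 1.85-fold lower. The median of this list in MI was -0.21 and turned to 0.08 under RLE, as did that of all genes. At IR day 14, 0 of 8 passed.

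Perp is a p53 target, and of 18 such genes 6 were tested. Cdkn1a rose in MI by 2.49 ± 0.54 and Gdf15, a stress cytokine, in IR day 1 by 2.76 ± 0.91. Each was 1 of 6, where 36.5% of all genes passed in MI and 12.2% in IR day 1. In IR day 3 and IR day 14, 0 of 6 passed, with Cdkn1a at 1.32 ± 0.45 in IR day 3 (edgeR, adjusted p = 0.0603). Under RLE Cdkn1a passed there as well, and 2 genes rose in IR day 1. The list's median was 1.35 in MI. In IR it was 1.14 at day 1 and 0.46 at day 3.

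Among relatives and partners of the members, 10 of 24 genes were tested, on the same plates, where fibroblast markers reached higher sums after injury. In IR day 3 Emp3 and Emp1, tetraspan proteins of the epithelial membrane protein family, rose by 3.01 ± 0.61 and 2.98 ± 0.59, and Plp2, a proteolipid, by 2.00 ± 0.34. Without replicate 3, 4 of the 12 genes then tested rose. Tgm2, a transglutaminase of the enzyme family that cross-links Sprr1a, rose in IR day 1 by 1.83 ± 0.44 and in MI by 1.58 ± 0.39. In MI 1 of the 10 genes rose and 3 fell, where 36.5% of all genes passed. The desmosomal genes Dsg2 and Dsp, partners of Perp at the junction, fell in MI, as did Vldlr, a receptor of the family that binds clusterin. Dsp was at -2.24 ± 0.54 there, Dsg2 had 0 UMIs and was at least 5.32-fold lower than sham, and Vldlr had 1 UMI and was 63.1 times lower (11.3 to 2495). At IR day 1 Vldlr and Dsp were at -2.03 ± 0.51 and -1.62 ± 0.50 and Dsg2 was 6.23 times lower (1.69 to 52.0) from 2 UMIs. All 3 passed, of which only Vldlr passed under RLE. The list's median in IR day 1 was -0.30 and turned to 0.27 under RLE.

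Outside cardiomyocytes, Sprr1a was tested in endothelial-like cells, where it passed the filter on low counts only through the day 3 groups in which it was counted. It was at 0 to 3.77 CPM in 8 sham plates, from 1 UMI in 145 cells, at 126 and 181 CPM in both IR day 3 plates, and at 0 to 125 CPM in 5 MI plates. All IR day 3 plates and 4 of the 5 MI plates lay above the sham plates. In IR day 3 the log2 difference was 6.28 ± 1.35 (edgeR, adjusted p = 0.00805), while 1.65% of 3943 genes passed, and 18 UMIs lay in 8 of 28 cells. The pooled ratio was 96.1 (15.2 to 4005). Without replicate 4 of IR day 3, which leaves 1 plate whose spread is taken from the other groups, the adjusted p was 0.186 at a difference of 6.40, and DESeq2 gave no adjusted p. In MI the difference was 3.62 ± 1.30 (adjusted p = 0.0330), while 31.5% of the genes passed, with 21 UMIs in 7 of 56 cells and a pooled ratio of 14.3 (2.29 to 589). That call was lost without replicate 5 of MI (2.87 ± 1.22, adjusted p = 0.0736), without replicate 5 of day 14 sham (adjusted p = 0.0637) and in DESeq2 (adjusted p = 0.0593). In IR day 1 the difference was 1.36 ± 1.55 (adjusted p = 0.636), where 10.9% passed. With no filter beyond 1 UMI in the fit edgeR's adjusted p was 2.09e-05 for IR day 3 and 0.0102 for MI. The MI cells were deeper, with a median of 16726 UMIs against 3632 in sham, and after thinning to 1000 UMIs 0 of 56 held Sprr1a, against 4 of 28 in IR day 3. The groups also differed in cluster. A cluster with Plvap, Vwf and Igf2 among its leading genes held 52 of the 56 MI cells. It held 11 of 28 in IR day 3 and 43 of 72 in IR day 1, but 6 of 91 and 3 of 54 in day 1 and day 14 sham. The part of cluster in these differences was not tested.

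Markers of cardiomyocytes and of fibroblasts were counted in the endothelial-like cells. All 10 cardiomyocyte markers were detected in every sham and IR day 3 plate, with a summed level of 10234 to 35398 CPM in sham and 16052 to 19051 in IR day 3. In MI 5 to 8 of the 10 were detected, at 322 to 556 CPM. The 8 fibroblast markers summed to 264 to 997 CPM in the endothelial-like sham plates, with 2 to 8 detected, to 1012 and 3856 in IR day 3, with 6 detected, and to 828 to 2423 in MI, with 6 to 8 detected. Fibroblast-like cells of IR day 3 held Sprr1a at 116 CPM, and the part of either cell type was not tested. The ratio of Sprr1a to Myh6 UMIs is set beside that of the cardiomyocyte-like cells of the same group, taken with and without Sprr1a. In the 104 cardiomyocyte-like cells of IR day 3 with a Sprr1a UMI, 930 of its UMIs lay beside 6192 of Myh6. In IR day 3 there were 62.4 Sprr1a UMIs per 1000 of Myh6 in cardiomyocyte-like cells, 108 in endothelial-like, 162 in fibroblast-like and 25.6 in macrophage-like cells, the last from 1 UMI. MI had 719 in the cardiomyocyte-like cells, whereas endothelial-like cells held 21 Sprr1a UMIs beside 1 of Myh6, fibroblast-like cells 144 beside 17 and macrophage-like cells 66 beside 18.

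**Figure D4:**
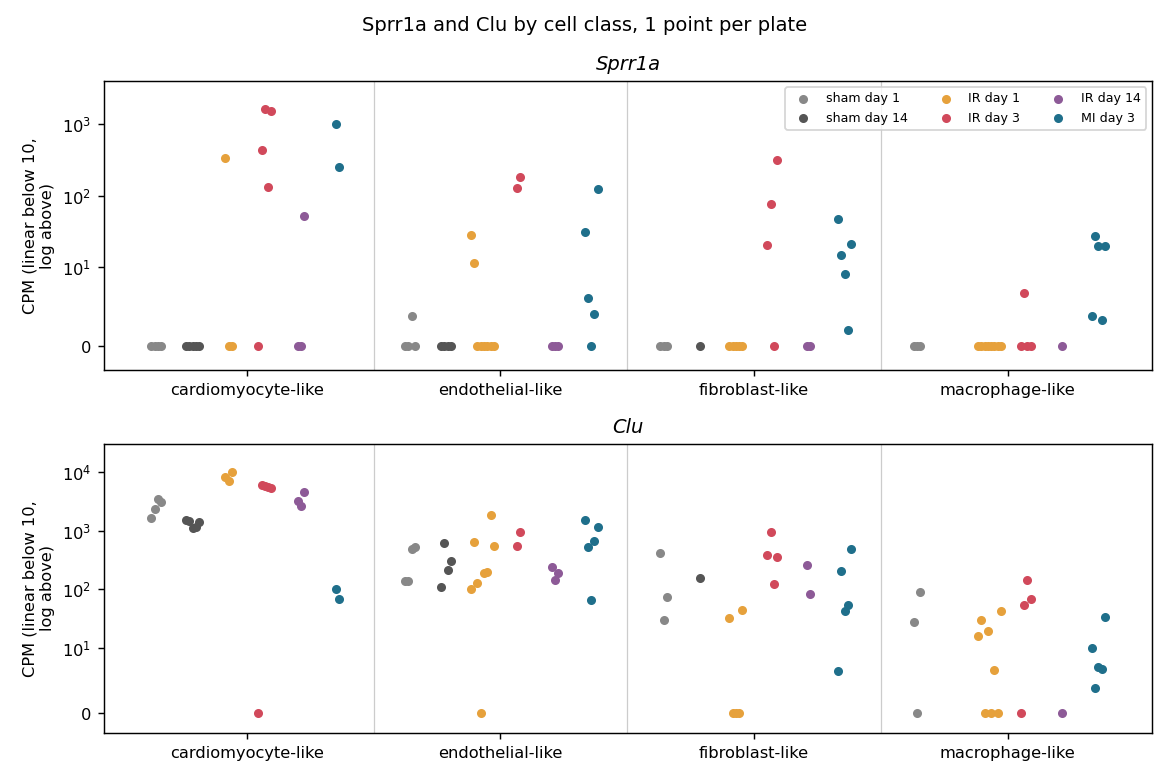
Level of Sprr1a (top) and Clu (bottom) in CPM on an axis that is linear below 10 and logarithmic above, by cell class (horizontal axis) and group (colour). Each point is 1 plate with at least 5 cells of the class. In MI Clu is at 67.9 and 101 in cardiomyocyte-like cells and reaches 1482 in endothelial-like cells, while in IR day 3 it is highest in cardiomyocyte-like cells.

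Clu in endothelial-like cells did not pass in any comparison. In MI it was at 1482, 526, 65.6, 662 and 1149 CPM, against 136 to 526 in day 1 sham and 110 to 604 in day 14 sham, so the groups overlapped. The log2 difference was 1.26 ± 0.56 (edgeR, adjusted p = 0.0846), and without MI replicate 3 it was 1.55 ± 0.54 (adjusted p = 0.0280). As given above, MI and sham cells lay mostly in different endothelial-like clusters, and the part of that was not tested. The IR day 3 plates had 555 and 953 CPM and a difference of 1.08 ± 0.80 (adjusted p = 0.574). At IR day 1 the difference was 0.52 ± 0.63 (adjusted p = 0.661), and without replicate 8 it turned to -0.38. In IR day 14 it was -0.50 ± 0.86 (adjusted p = 0.977) and 0.23 without day 14 sham replicate 5. In that last comparison 0% of genes passed in edgeR, with 216 at an unadjusted p under 0.05 and 1 call in DESeq2. Mal was at 0 to 191 CPM in sham and at 0 to 176 in MI, with a difference of 1.20 ± 0.92 in MI (adjusted p = 0.333). Perp and Cited4 did not pass the filter on low counts, with 14 and 7 UMIs in all sham endothelial-like cells.

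The MI endothelial-like values came from few cells. Of the 56 cells, 7 on 4 plates had at least 10 Clu UMIs and held 976 of the 1012 Clu UMIs, 54 of the 55 of Mal and 19 of the 21 of Sprr1a. The cell highest in Clu, in replicate 1, held 56.3% of the group's Clu. Genes named next were chosen after their values were seen. The 7 cells had H19 at 7804 CPM against 68.6 in the other 49, Igf2 at 4636 against 93.0, Npr3, a natriuretic peptide receptor known from the endocardium, at 656 against 1.22, and Vwf (von Willebrand factor) at 1985 against 97.9. The 8 endothelial markers were all detected in them and summed to 6722 CPM, against 8446 in the others, with 3 higher and 5 lower. Pecam1 was at 1450 against 1399 CPM, Emcn at 1473 against 545 and Fabp4 at 1152 against 3571. Of the 8 fibroblast markers 7 were detected, with a sum of 2287 CPM against 1012, and 3 were higher and 5 lower. The matrix proteoglycan genes Dcn and Lum were at 1090 and 222 CPM against 39.2 and 4.90, whereas Col1a1 was at 84.5 against 190, Pdgfra at 8.45 against 9.79 and Tcf21 at 0 against 1.22. Of the 10 cardiomyocyte markers 7 were detected, at 369 CPM in sum against 414. Doublets were not called, and the part of other cell types in these values was not tested. Most UMIs of Clu, Mal and Sprr1a thus lay in these 7 cells, with 1 UMI of Perp and 0 of Cited4. Sprr1a was counted in 5 of them and Mal in 5, and the cell highest in Mal held 0 of Sprr1a. The cut at 10 UMIs favours deep cells: the cell highest in Clu had 77424 UMIs, against a class median of 16726.

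In fibroblast-like cells the level of Sprr1a in MI was compared with that in IR day 3. These groups differed in median depth (45080 and 3082 UMIs) and in median mitochondrial share (7.08 and 17.9%). A cluster led by Cxcl5 held 132 of the 133 MI cells and 37 of the 57 of IR day 3. The part of depth and cluster was not tested. Sprr1a was at 20.4, 75.5, 0 and 318 CPM in IR day 3 and at 46.8, 14.8, 9.09, 2.07 and 21.3 in MI, so the groups overlapped. It had 0 UMIs in the fibroblast-like cells of the other 4 groups and so passed the filter on low counts through these 2 groups. The log2 difference was -2.76 ± 0.75 (edgeR, adjusted p = 0.0275, and 9.38e-08 with no filter beyond 1 UMI in the fit), while 8.72% of 5954 genes passed, 198 higher and 321 lower under TMM and 140 and 381 under RLE. The call was lost in DESeq2 (adjusted p = 0.294) and without IR day 3 replicate 4 (0.0540), MI replicate 2 (0.0527) or MI replicate 3 (0.0612). Without IR day 3 replicates 4 and 7 the fit called 249 and 338 genes in place of 519. One MI cell held 70 of the 144 Sprr1a UMIs and 1 IR day 3 cell 30 of 58. Clu was at 387, 945, 124 and 353 CPM in IR day 3 and at 6.43, 206, 43.2, 53.7 and 488 in MI, a difference of -1.73 ± 0.72 (adjusted p = 0.137) that was -2.73 ± 0.68 (adjusted p = 0.0143) without MI replicate 5. One cell of that plate held 519 of the 1004 Clu UMIs of MI, and without it the pooled level was 70.2 CPM in place of 143. Cardiomyocyte markers summed to 1608 to 8677 CPM in IR day 3 and to 389 to 579 in MI, and their part was not tested.

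In macrophage-like cells, as named here, Clu was low and no call was made. The class holds 37 cells of IR day 3 and leaves out unnamed clusters with 9 macrophage markers raised. Those clusters held 21 and 136 cells of IR day 3, and 203 and 294 Clu UMIs over all groups. With clusters named by raised markers alone, Clu passed in both comparisons, as given below. In the class as named, Clu was at 0 to 42.9 CPM in 8 plates of IR day 1, at 0, 53.9, 141 and 68.7 in IR day 3 and at 3.85 to 34.3 in MI. IR day 3 against IR day 1 gave 2.04 ± 0.89 (edgeR, adjusted p = 0.138), with 11.4% of 4947 genes passing, and MI against IR day 3 gave -2.21 ± 0.81 (adjusted p = 0.160), with 2.59% passing. In the first of these TMM gave 249 higher and 315 lower genes, and RLE gave 312 and 253. The number of genes called was 336 without IR day 3 replicate 4 in the first, and 40 to 72 in place of 128 in the second without any of IR day 3 replicates 3, 5 and 7 or MI replicates 1, 2 and 4. The other 4 members did not pass the filter there. Perp, Mal and Cited4 each had at most 1 UMI in the 160 macrophage-like cells of MI, and Mal had 0 in 133 fibroblast-like cells of MI.

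The members followed different genes over the plates. For each, the genes with the highest Pearson correlation of log2(CPM + 10) were taken over the 22 plates with at least 5 cardiomyocyte-like cells, among 2420 genes with a mean of at least 50 CPM. These values are a description, as plates share depth and group. For Sprr1a they were the tubulin genes Tubb2a (r 0.79) and Tuba1a (0.72), the lectin Lgals3 (0.73), Tpd52 (0.73) and Esd (0.72). For Clu they were Mfge8 (0.94), Itga7 (0.94), Cd63 (0.93), Dad1 (0.91) and Ctsa (0.91), and without MI and IR day 3 replicate 3, over 19 plates, 0.72, 0.74, 0.91, 0.32 and 0.43. Mfge8 encodes a secreted bridging protein, Itga7 the laminin receptor of muscle, Cd63 a lysosomal tetraspanin and Ctsa a lysosomal protease.

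For Perp they were Uqcc (0.90), Timm44, Mtch1 (both 0.89), Abcd3 and Cand2 (both 0.88), most of which encode mitochondrial or peroxisomal proteins. For Mal they were Cp (0.78), which encodes ceruloplasmin, Rnf139 (0.74), 5031426D15Rik (0.74), Abca1 (0.72) and Hook3 (0.71). For Cited4 they were Lyrm5 (0.85), Plekhb2 (0.83), Mbd2 (0.81), Tomm22 (0.80) and Pcyt1a (0.80). Among the members themselves the highest value was 0.59, between Perp and Cited4. Sprr1a and Clu gave 0.05 over 22 plates and 0.57 over the 19 without MI and IR day 3 replicate 3.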

How the data were processed

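Single cells of the mouse left ventricle were profiled with SORT-seq, in which 1 cell is sorted into each well of a plate. The authors deposited UMI counts per gene and well for 36 plates, made from reads mapped to GRCm38/mm10 with BWA (per the labels, version not given in the sources used here). All 174110208 values were whole numbers. Mitochondrial genes and spike-in RNA were left out of counts and library sizes. The members and all gene lists were chosen with earlier results of these data known.

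Wells with at least 1000 UMIs (3146) were clustered without the 5 members in scanpy 1.11.5, using 2000 variable genes, 30 components, 15 neighbours and leidenalg 0.10.2 at resolution 1. Clusters were named from marker lists, and the class names mean cells like that type. After the clusters had been seen, those with more markers of another class than of their own among their 10 leading genes were left unnamed. Doublets were not called. Total UMIs per plate ranged from 176614 to 5551870, and floors of 3 counts and 95% intervals cover counting error only.

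UMIs were summed per plate and class (at least 5 cells) and fitted for all 6 groups with edgeR 4.0.16 (filterByExpr, TMM, quasi-likelihood F test, Benjamini-Hochberg over all genes, threshold 0.05). The same steps were tested on simulated data. Day 14 sham replicates 2 and 7 were averaged, 16 wells of replicate 2 matched wells of IR day 3 replicate 6, and 21 wells of IR day 1 replicate 9 matched replicates 5 and 8. Named list genes passed the threshold, up to 6 per list and comparison by size of change. Alternatives were DESeq2 1.42.0, RLE scaling, no filter, a replicate block, 10 or 1 cells per plate, 2000 UMIs per well, copied wells left out and each replicate left out.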

Additional observations from a re-analysis of the deposited data

Results flagged for a closer look

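Of 37 groups of 4 to 10 plates tested for 1 plate far from the others, 6 had such a plate, where chance gives about 1 in 20. Clu in cardiomyocyte-like cells of IR day 3 was at 0 CPM in replicate 3, with the other 4 plates at 5288 to 5973. Clu in endothelial-like cells of IR day 1 was at 1812 CPM in replicate 8 (131 UMIs), the highest of 8 plates. Perp at 34.6 CPM and Mal at 69.2 CPM in endothelial-like cells of IR day 1 replicate 9 rested on 1 and 2 UMIs. Sprr1a in endothelial-like cells of MI was at 125 CPM in replicate 5 (5 UMIs), and Clu in macrophage-like cells of MI was at 34.3 CPM in the same replicate (21 UMIs).

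Sprr1a was also counted in wells and cells that no comparison used. In wells of at least 100 but under 1000 UMIs it was at 280 CPM in IR day 3, from 80 UMIs in 54 of 751 wells, and at 90.4 CPM in MI, from 55 UMIs in 42 wells. The same wells of day 1 sham held 6 UMIs in 2 wells (18.1 CPM), and those of day 14 sham held 1 UMI. In the unnamed clusters it was at 47.8 CPM in IR day 3 (103 UMIs) and at 18.0 CPM in MI (63 UMIs), with 0 UMIs in day 1 sham and 2 in day 14 sham.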

How the results depend on the processing

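Plates are few, some share a mouse, MI rests on 20 cardiomyocyte-like cells, and members with under 10 UMIs in a group cannot show small differences. Same-numbered plates of different groups did not deviate together (26 pairs, median correlation -1.71e-05, from -0.0891 to 0.138), so the replicate block is given only here. The cause of each change below was not tested.

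Genes called in cardiomyocyte-like cells in IR day 3 (269) were 416 without the filter, 54 with the replicate block, 408 with 10 cells per plate and 122 with 1. In IR day 14 (8) they were 1 in DESeq2, 16 without the filter and 2 with 1 cell. In IR day 1 (513) they were 145 with 10 cells and 116 in wells of 2000 UMIs. Between sham groups (27) they were 7 with the replicate block, 45 with 10 cells and 14 with 1. With 10 cells per plate MI had no value, and cardiomyocyte-like IR day 1 and endothelial-like and macrophage-like IR day 3 kept 1 plate each, assumed to vary like the other groups. In endothelial-like cells IR day 1 (429) gave 209 with the replicate block, IR day 14 (0) gave 1 in DESeq2, 11 without the filter and 2 in wells of 2000 UMIs, and IR day 3 (65) gave 112 without the filter and 112 with clusters named by raised markers alone, a choice added after seeing the data. In macrophage-like cells IR day 3 against IR day 1 (564) gave 316 with the replicate block, 183 with 10 cells, 301 in wells of 2000 UMIs and 1340 with raised markers alone. MI against IR day 3 (128) gave 228 in DESeq2, 248 without the filter, 25 in wells of 2000 UMIs and 432 with raised markers alone. In fibroblast-like cells (519) the counts were 936 in DESeq2, 1082 without the filter, 126 with the replicate block, 1347 with 10 cells and 212 with 1.

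The log2 difference of Clu in endothelial-like cells turned to -0.38 in IR day 1 and 0.45 in IR day 14 with the replicate block, and to -1.46 and 0.076 with raised markers alone. In MI it passed at 1.66 with the replicate block, 1.35 without the filter and 1.36 with 1 cell. Sprr1a in MI endothelial-like cells no longer passed at 3.15 in DESeq2, 3.10 with 10 cells and 2.97 in wells of 2000 UMIs. In macrophage-like cells Clu turned to -6.03 and 5.75 with 10 cells, where the 1 IR day 3 plate left had 0 Clu UMIs, so that neither value is a measured size, and passed at 2.76 and -3.34 with raised markers alone. In fibroblast-like cells Clu passed at -1.45 without the filter, and Sprr1a no longer passed at -2.71 in DESeq2 and -2.25 with the replicate block. Mal turned in IR day 1 endothelial-like cells to -0.0051 with RLE, -0.089 in DESeq2, -2.60 with the replicate block, -0.061 with 1 cell, -0.014 in wells of 2000 UMIs, -0.0039 without day 14 sham replicate 2 and -0.34 with raised markers alone. It turned in IR day 14 to 0.56 with the replicate block, and in IR day 3 to 0.50 with 10 cells, 0.85 with 1 and 0.94 with raised markers alone. Between sham groups Cited4 turned to 0.034 with 10 cells and 0.056 in wells of 2000 UMIs, and Perp to -0.024 with RLE, -0.019 with 1 cell, -0.023 in wells of 2000 UMIs, -0.026 in DESeq2, -0.11 with the replicate block, -0.0091 without day 14 sham replicate 2 and -0.0084 without copied wells.

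Leaving out 1 replicate gave 567 to 1572, 148 to 294, 2 to 11, 242 to 506 and 15 to 39 called genes in cardiomyocyte-like cells (MI, IR day 3, IR day 14, IR day 1, sham), 275 to 484 and 7 to 87 in endothelial-like cells (IR day 1, IR day 3), 336 to 675 and 40 to 167 in macrophage-like cells and 249 to 683 in fibroblast-like cells. Clu in endothelial-like cells ranged from -0.38 to 0.76 in IR day 1, -0.81 to 0.23 in IR day 14 and 0.87 to 1.55 in MI, and Sprr1a from 6.18 to 6.40 in IR day 3 and 2.87 to 3.58 in MI. In fibroblast-like cells Clu ranged from -2.73 to -0.96 and Sprr1a from -3.40 to -2.50. Mal in endothelial-like cells ranged from -0.66 to 1.68 (IR day 1) and -4.39 to 0.18 (IR day 3), and between sham groups Perp ranged from -0.068 to 0.35 and Cited4 from -0.15 to 0.25.

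Thinning each cell to 1000 UMIs moved the share of cardiomyocyte-like cells with Sprr1a in IR day 3 to 21.3%, and with Clu to 75.1, 69.0, 85.1, 79.1 and 10% in day 1 sham, day 14 sham, IR day 3, IR day 14 and MI. Pooling all MI cells gave Clu at 112 CPM.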
